A study of Anguilla anguilla and Anguilla rostrata with 84 samples.

Results

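Of 992 contigs measured in eel liver, 60 were singled out because their ratio of liver signal to pool signal differed most between fish of the same group. A contig is an assembled transcript sequence, here printed in 3 spots on each array. For every contig, the SD of the log2 ratio over fish was taken within each of 17 groups, and the 60 contigs with the largest median of the 17 SDs are the members described here. The ratio compares the liver of 1 fish with a common pool on the same array, so 0 means the level of the pool, and 1 unit means a doubling. That choice was made on the measured spread itself, so the size of the members' spread is given as a description and not as a test.

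Each fish was 1 array, with its liver cDNA in Cy3 against the Cy5-labelled pool made from 30 wild eels of Certes in France. Of 84 arrays, 81 were used. European eels, Anguilla anguilla, made up 46 laboratory fish and 15 wild fish from Dordogne, Gironde and Garonne in France. American eels, Anguilla rostrata, made up 20 wild fish from St François, St Jean, St Pierre and Sud-Ouest in Canada, so species and country cannot be told apart among the wild fish. The laboratory fish comprised a control group and groups exposed to 1 condition each. Food was limited to 2.5% of body weight in the restricted diet group, salinity was raised to 18 permil, and low temperature meant 13 °C. Dissolved cadmium was given at 0.4 or 4 ug/L. Dietary exposures, per dry weight of food, were to PCB (polychlorinated biphenyls, 50 or 300 ng/g), to methylmercury (5 ug/g) and to organochlorine pesticides (13 ng/g). The control, PCB 300 ng/g, cadmium 4 ug/L and low temperature groups had 4 fish each, and the other 13 groups had 5.

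The liver makes plasma proteins, stores and releases fat and glycogen, and clears foreign compounds. Levels of many liver transcripts in fish depend on feeding state, season, sex and maturity, infection and exposure, so animals kept or caught together can differ. None of the 992 contigs was paired with a gene name in the sources used here (0 of 992), so no function is given for any member, and the tissue could not be checked against marker genes. In bulk liver RNA, fewer cells of a type and less RNA per cell cannot be told apart.

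The number of contigs above background in both channels ran from 377 to 992 per array, with a median of 858 in laboratory fish and 969 in wild fish. The raw columns of control fish 5 were identical to those of salinity fish 4, and those of cadmium 4 ug/L fish 1 to those of cadmium 0.4 ug/L fish 4. In addition, 1 low temperature array correlated at -0.56 to -0.49 with the other arrays of its group. Control fish 5, cadmium 4 ug/L fish 1 and this low temperature fish were left out. Salinity fish 4 and cadmium 0.4 ug/L fish 4 were kept. The wild fish and the laboratory fish also differed in this array measure, and its part in the comparisons of laboratory and wild fish below was not tested.

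The members' median SD ran from 0.454 to 1.77 log2 units, with a median of 0.527. The other 932 contigs ran from 0.121 to 0.453, with a median of 0.246. There was no gap at the boundary. The last members were contig_4515 at 0.457, contig_23213 at 0.455 and contig_14643 at 0.454, and the first contigs left out were contig_29281 at 0.453, contig_7147 at 0.452 and contig_17189 at 0.452. At the other end, contig_9866 stood at 1.77, contig_18333 at 1.62, contig_7154 at 1.48, contig_38124 at 1.16, contig_16406 at 1.14 and contig_16488 at 1.07, and the remaining 54 members were below 1.

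contig_9866 had the largest spread of all contigs. Its 5 high salinity fish had log2 ratios of -4.31, -3.03, -2.68, -0.31 and 3.86. The restricted diet fish had -2.82, -2.61, -2.30, -1.08 and 3.96. The 4 control fish, at -2.76, -2.20, -1.81 and -1.49, spanned the narrowest range of any group. A single fish stood far above the rest in the salinity and diet groups. At PCB 300 ng/g the fish fell on both sides of the pool, with -4.02 and -1.92 against 2.21 and 2.40. At St Jean most fish were above the pool, with -0.90, 1.06, 1.34, 3.07 and 3.55, whereas all 5 Garonne fish were below it, with -4.97, -4.12, -3.36, -2.65 and -0.38. Its signal was above background in 72 of 81 fish, and the pool was above background on all 81 arrays. Among the ratios given here, the fish signal was not above background for -4.31 under salinity, -2.82 and -2.61 under restricted diet and -4.12 at Garonne.

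contig_18333 was uneven in some groups and even in others. The 5 Dordogne fish had log2 ratios of -2.28, -1.91, -0.73, 2.04 and 3.00, the largest SD for this contig at 2.37. The 5 St François fish had 1.35, 1.47, 1.74, 2.30 and 2.37, the smallest SD at 0.467. The 5 St Jean fish had 2.35, 2.44, 2.48, 3.13 and 3.48. All fish of these 2 Canadian sites were above the pool, while the Dordogne fish split into 3 below it and 2 above.

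contig_7154 was above the pool in most fish but by very different amounts. At cadmium 0.4 ug/L the 5 fish had log2 ratios of -0.97, -0.16, 2.38, 4.53 and 5.50. At St Jean they had 0.82, 1.52, 1.86, 4.75 and 5.31. Under methylmercury they had 1.19, 1.39, 1.66, 2.02 and 2.12, the narrowest group with an SD of 0.399. The pool's own signal for this contig was above background on only 61 of 81 arrays, which limits how well its ratios are measured. The pool was not above background for 1.19 and 1.39 under methylmercury and 0.82 at St Jean. At cadmium 0.4 ug/L the fish signal was not above background for -0.97 and -0.16.

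contig_38124 split several groups. In the PCB 300 ng/g group the fish had log2 ratios of -1.03, -0.93, 1.42 and 1.47, and at Sud-Ouest they had -2.52, -2.17, -2.15, 0.50 and 0.79. The 4 cadmium 4 ug/L fish had 0.00, 1.05, 1.21 and 1.23 and the smallest SD of this contig, 0.590. No fish lay between -0.93 and 1.42 in that PCB group or between -2.15 and 0.50 at Sud-Ouest.

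contig_16406 and contig_16488 were below the pool in most fish. For contig_16406 the 5 salinity fish had log2 ratios of -5.45, -3.71, -2.87, -2.36 and 0.06, and the 5 PCB 50 ng/g fish had -2.58, -2.05, -2.02, -1.96 and -1.37. For contig_16488 the 5 Garonne fish had -3.04, -2.02, -1.38, 0.50 and 0.55, and the 5 PCB 50 ng/g fish had -2.31, -2.27, -1.68, -1.60 and -1.48. Both contigs were most even in the PCB 50 ng/g group, with SDs of 0.430 and 0.392. Of these ratios, -3.71 came from a fish signal that was not above background. The ratios of each fish show these uneven and even groups side by side.

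**Figure D1:**
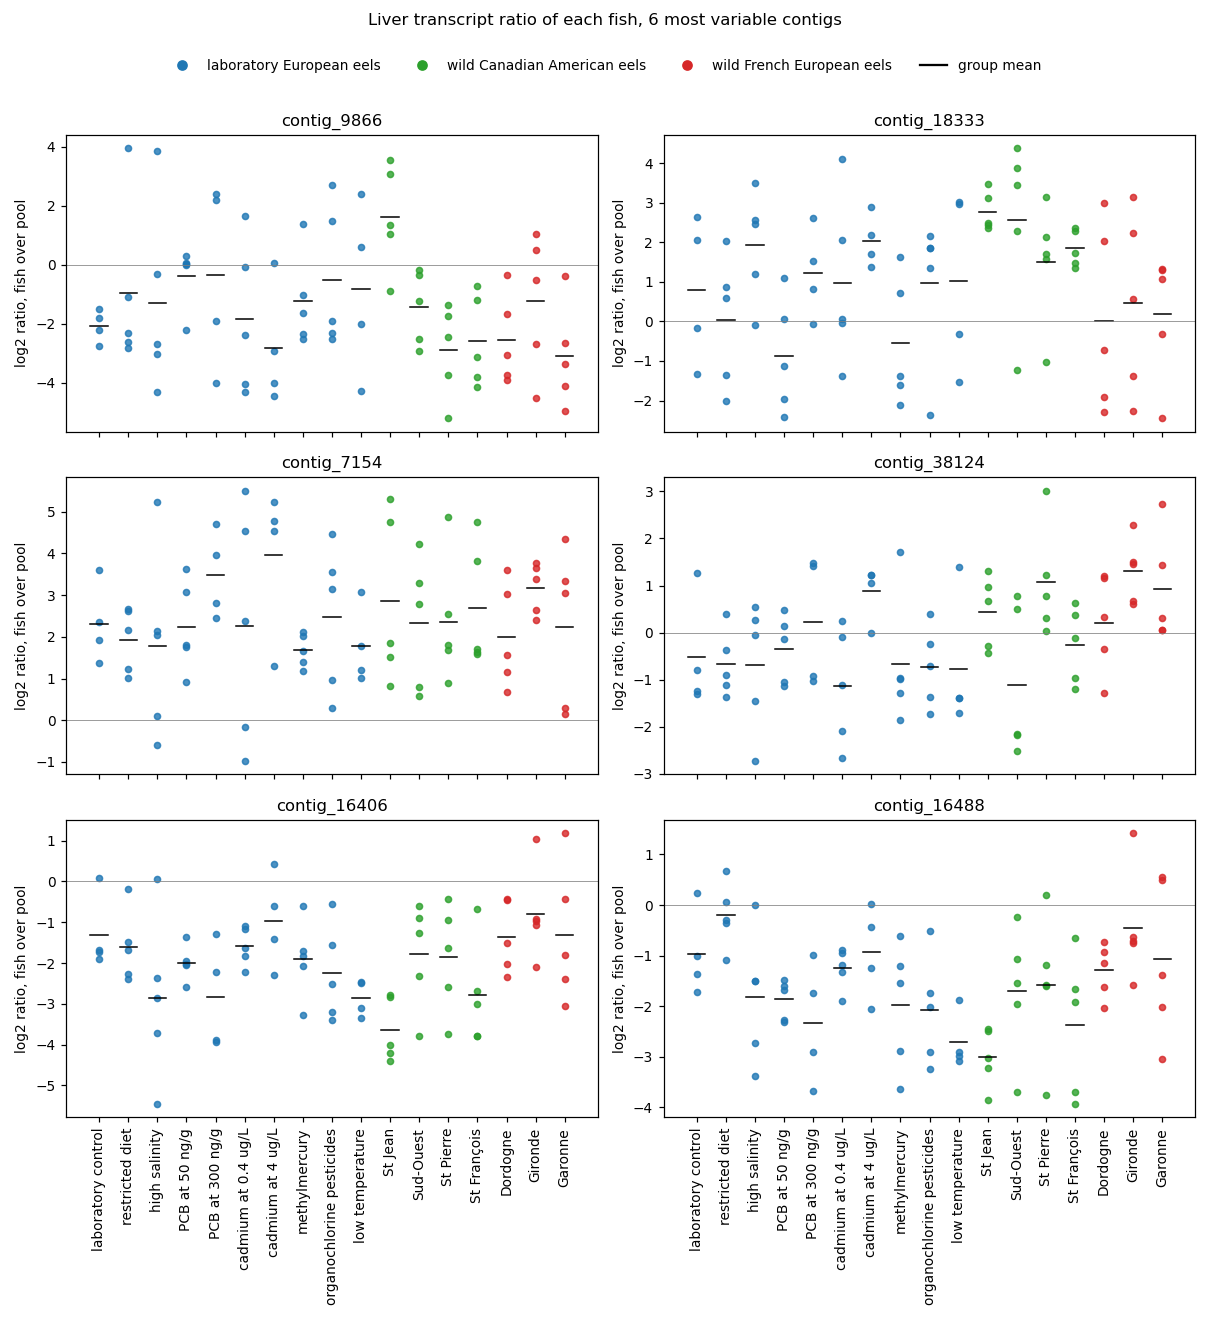
Log2 ratio of each fish over the pool (y axis) by group (x axis) for the 6 contigs of largest median SD; each point is 1 fish and each bar the group mean. For contig_9866 the control fish lie between -2.76 and -1.49, while the salinity fish run from -4.31 to 3.86.

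The members were bright contigs. Of the 60, 36 (60%) were in the brightest 25% of all contigs and 2 (3.33%) in the dimmest 25%. The signal was above background in every fish for 35 members (58.3%), against 29.4% of all contigs. The rule ranked ratios with an offset of 50 added to both channels, which weighs most on dim contigs. The part of the offset in these shares was not tested, so they are a description. The mean log2 ratio over fish was below 0 for 42 members (70%), against 48.7% of all contigs. Spots at the scanner's upper limit occurred on at least 1 array for 7 members (11.7%), against 3.93% of all contigs. For contig_18434 they occurred on 59 of 81 arrays in the fish channel and on 43 in the pool channel, which limits its ratios. contig_18434 was picked out after its values were seen.

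The spread between fish was larger than the error between spots for every member, and also for most contigs. The rule chose members by a large SD, so this is a description. The SE of a mean of 3 spots on 1 array had a median of 0.179 log2 units in members and 0.155 over all contigs. The members' median SD between fish was 1.40 to 11.2 times this error, with a median of 3.18. Over all contigs the median was 1.66 and the first quartile 1.29. The spots of 1 array share the same labelled cDNA, so this error leaves out labelling and hybridisation.

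**Figure D2:**
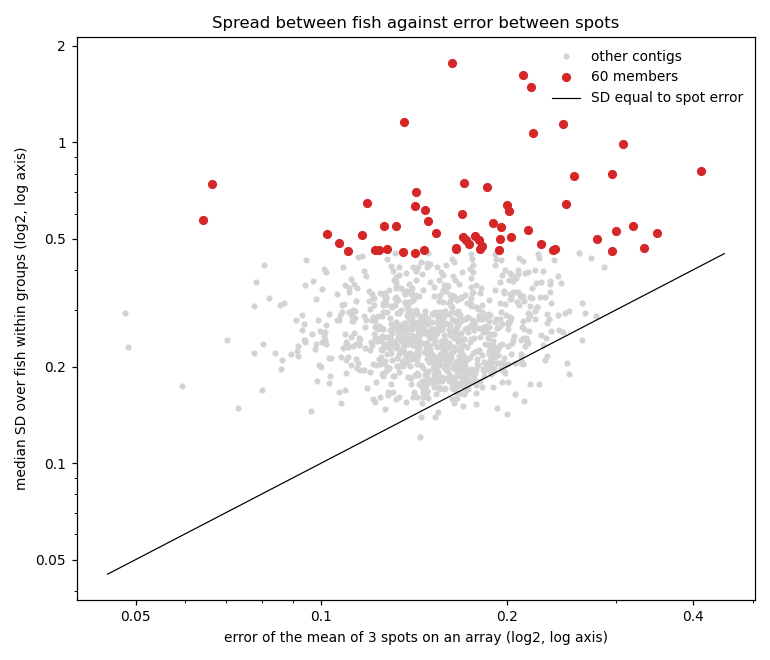
Median SD over fish within groups (y axis, log2 units, log axis) against the SE of the mean of 3 spots on an array (x axis, log2 units, log axis), 1 point per contig, with a line of equal values. All 60 members lie above the line, as do most contigs, and the members' median ratio of SD to spot error is 3.18. The rule chose the members by the value on the y axis.

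The pool was the same RNA on every array, so the 2 channels could be set beside each other. After normalization of the channels between arrays, the median SD within groups was 0.681 in the fish channel for members, against 0.314 over all contigs. In the pool channel it was 0.529 for members, against 0.30 over all contigs. The members' pool channel thus also varied more than that of other contigs, and the part of array differences in the members' spread was not tested. The share of the within-group variance of the ratio carried by the fish channel, which is the covariance of that channel with the ratio over the variance of the ratio, had a median of 79.1% in members and 58.8% over all contigs. Among members it was lowest for contig_22142, at -67.6%, and below 0 in 4 (6.67%), against 5.34% of all contigs. A share below 0 means that the fish channel deviated on average against the ratio. It was 94.8% for contig_9866. It exceeded 75% in 32 members (53.3%), against 29.5% of all contigs. contig_22142 was singled out after its values were seen.

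Fish far from their group were counted as ratios more than 2 log2 units, or 4-fold, from the median of the group. Of the members' 4860 values, 79 lay above and 64 below by this measure, 2.94% in all. The other contigs had 62 above and 10 below among 75492 values, 0.0954% in all. In all but 1 of the members' distant values all 3 spots lay over 1 log2 unit on the same side, and in 75.5% all 3 lay over 2 units. In 10 of them the fish signal was not above background and in 4 the pool signal was not, so the size of those ratios depends on the background correction. As the members were chosen by their spread, the higher count describes them and tests nothing.

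These distant values were unevenly shared among members. At least 1 occurred in 34 of the 60 members (56.7%), against 8.97% of all contigs, and none in the other members. The 3 contigs of largest median SD held 59 of these values (41.3%). contig_9866 had the most fish above the group median by this measure, 16, and 8 below. contig_7154 had 9 above and 9 below, and contig_18333 had 8 above and 9 below. Fish on both sides within 1 group were seen in 5 members (8.33%) and in 5 of 992 contigs (0.504%).

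The distant values were also spread over many fish, with 61 of 81 having at least 1. None was found in 20 fish, 1 in 26, 2 in 13, 3 in 10, and 4 or more in 12. The highest count, 8, was in St Pierre fish 4, with 1 member above and 7 below. Salinity fish 3 had 7, and salinity fish 4 and cadmium 0.4 ug/L fish 5 had 6 each. The median absolute deviation of St Pierre fish 4 from its group median was 0.71 log2 units over members and 0.203 over all contigs, and over all contigs St Pierre fish 5 was higher, at 0.209. Among laboratory fish 13 of 46 had none, and among wild fish 7 of 35.

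A stricter sense of on and off is a fish signal above background in some fish of a group and not in others. This occurred in at least 1 group for 25 members (41.7%), against 70.5% of all contigs. Among members, contig_31845 had such fish in the largest number of groups, 10, and contig_9866 in 7. Arrays of 1 group also differed in the number of contigs above background in both channels. It ran from 377 to 990 at PCB 50 ng/g and from 392 to 672 under restricted diet. The part of such array differences and of the offset in these counts was not tested.

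Deviations from the group mean were compared between members over the 81 fish, which share arrays and the pool. Among 1770 pairs of members, Pearson's r ran from -0.52 to 0.84 with a median of 0.021. It was over 0.5 in 17 pairs (0.96%), against 1114 of 491536 pairs of all contigs (0.227%). Pairs under -0.3 made up 3.22% among members and 2.81% among all contigs. Another member was correlated at over 0.5 with 24 of the 60. The same count was not made for all contigs.

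The highest pair was contig_16406 and contig_16488, with r = 0.84 and Spearman's rho = 0.80 over 81 fish. It was 0.83 in the 46 laboratory fish, 0.85 in the 35 wild fish and 0.82 without the 2 most distant fish. In salinity fish 3 both were high, at 0.06 and -0.00, and in salinity fish 4 both were low, at -5.45 and -3.37. The fish channels of this pair correlated at 0.72 and the pool channels at 0.18. contig_22265, also a member, followed both, with r = 0.78 to contig_16406 and r = 0.67 to contig_16488.

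contig_7154 and contig_21940 had r = 0.73 and rho = 0.71. Their fish channels correlated at 0.63 and their pool channels at 0.71, though the pool was 1 RNA. In the authors' processed values r was 0.43. contig_38124 and contig_15825 had r = 0.67 and rho = 0.68, with fish channels at 0.72 and pool channels at 0.62. In processed values their r was 0.64. The part of the pool channel in both pairs was not tested. The lowest pair was contig_29875 and contig_14467, with r = -0.52 and rho = -0.54, which became -0.15 in the authors' processed values.

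contig_9866 and contig_18333, the 2 members of largest spread, had no close partner. The contigs most like contig_9866 were the members contig_37161 (r = 0.42) and contig_16133 (r = 0.40). Those most like contig_18333 were contig_15310 (r = 0.50) and contig_13937 (r = 0.46), neither of them a member. For 18 of the 60 members the most similar of all contigs was itself a member, with no such count made for other contigs. Pearson's r is given for these pairs as a description over 81 fish.

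**Figure D3:**
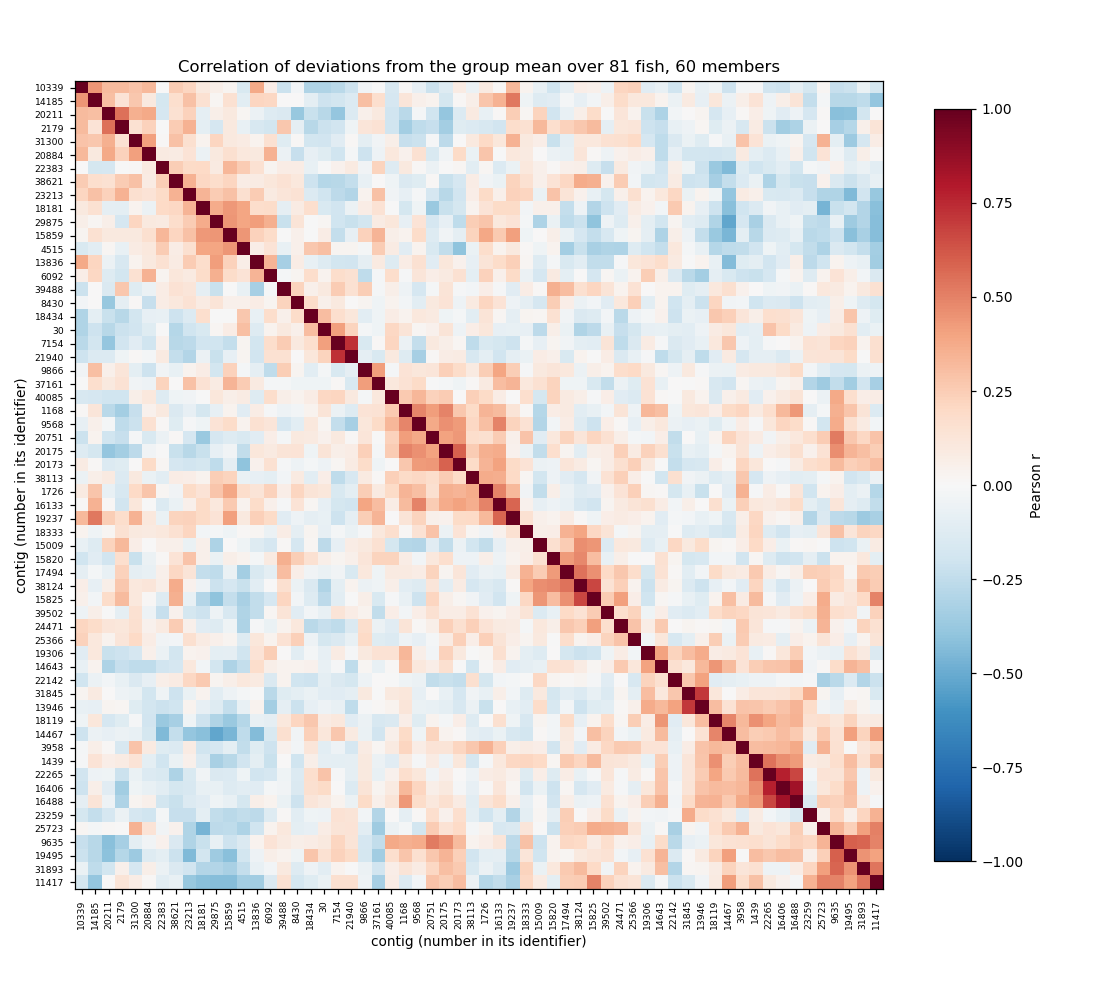
Pearson's r of deviations from the group mean over 81 fish for every pair of the 60 members, ordered by similarity; both axes list contigs and the colour gives r. Small blocks stand out, the strongest of them contig_16406, contig_16488 and contig_22265, while the median over pairs is 0.021.

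The members spread widely in every group. Their median SD ran from 0.430 log2 units at St François to 0.71 at St Pierre, and that of all contigs from 0.213 under restricted diet to 0.322 at cadmium 0.4 ug/L and St Pierre. The ratio of the 2 medians ran from 1.76 at St François to 2.79 under organochlorine pesticides. Since the rule used these SDs, the ratios are a description. Single members could still be even in a group, and the smallest group SD of a member had a median of 0.212 log2 units.

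**Figure D4:**
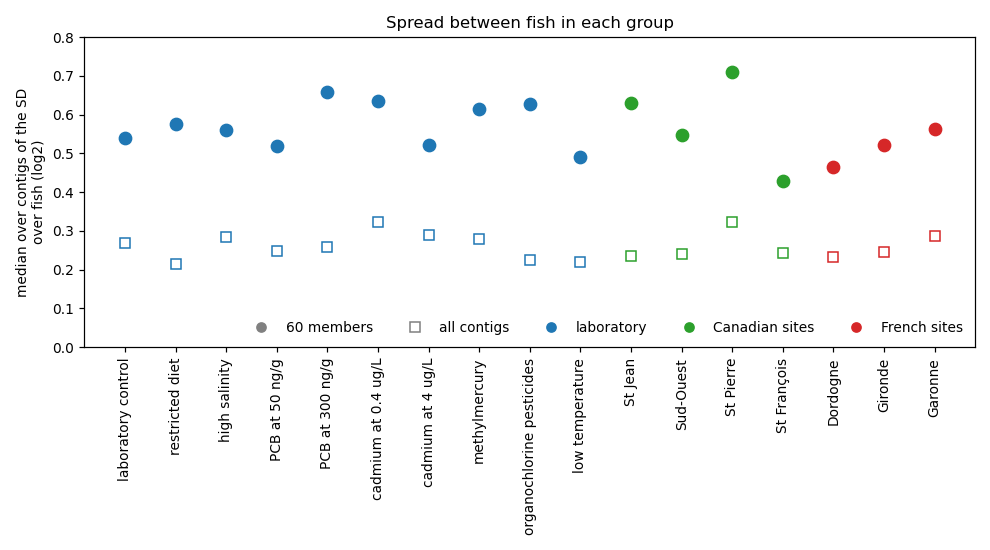
Median over contigs of the SD over fish (y axis, log2 units) in each of the 17 groups (x axis), for the 60 members (filled circles) and all 992 contigs (open squares). The members lie between 0.430 and 0.71 and all contigs between 0.213 and 0.322.

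Contigs that varied most in the laboratory were mostly variable at the sites too. A list of 60 ranked on the 10 laboratory groups alone shared 29 contigs (48.3% of each list) with a list of 60 ranked on the 7 sites alone. The laboratory list had a median SD of 0.483 log2 units at the sites, which its ranking did not use, against 0.254 for all contigs. Of its 60 contigs, 58 were above the median of all contigs at the sites and 36 were among the 99 most variable there. Across all 992 contigs the laboratory and the site SDs had r = 0.75 and rho = 0.57, where both sets share the pool and the spots of each contig.

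Laboratory and wild spread were of similar size over the members as a whole. The median SD was 0.564 log2 units in the laboratory groups and 0.534 at the sites, and it was larger at the sites in 27 of 60 members (45%), against 48.3% of all contigs. Deviations of each fish from its group mean were then compared with limma. The rule ranked the members on these same deviations, with laboratory groups making up 10 of 17, so the counts of members that follow are a description, nothing is read from them, and no p is given for the spread of a member. Between 7 sites and 10 laboratory groups, 6 members passed an adjusted p of 0.05, 3 with more spread at the sites and 3 with less. Over all contigs 44 of 992 passed (4.44%), which was 1.92% with more spread and 2.52% with less. The median difference was -0.029 over members and -0.011 over all contigs. Its sign over all contigs depended on processing. It was 0.019 with median centring of arrays, 0.029 with scaling between arrays and -0.094 in the authors' processed values.

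contig_11417 was uneven in the laboratory and even at most sites. In the 46 laboratory fish its log2 ratio ran from -1.41 to 2.00 with a median of 0.24, and in the 15 French fish from -0.40 to 0.41 with a median of -0.03. The 5 Garonne fish had -0.14, -0.07, -0.03, -0.03 and 0.05, whereas the 5 cadmium 0.4 ug/L fish had -0.85, -0.43, 1.16, 1.20 and 1.30. St Pierre was the exception among sites, with -1.60, -1.53, -0.21, -0.15 and -0.04. At 6 of 7 sites the SD was below that of every laboratory group. The mean absolute deviation was 0.239 at the sites and 0.646 in the laboratory, a difference of -0.41 (SE 0.06). This SE rests on fish within groups and leaves out differences between sites or between laboratory groups. Against French sites alone, which are of the laboratory species, the difference was -0.49.

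contig_15820 showed the opposite order. Under methylmercury the 5 fish had log2 ratios of -0.10, -0.03, 0.11, 0.13 and 0.22. At Gironde they had -0.42, 0.53, 1.72, 2.28 and 4.11, and at St Jean -0.14, -0.05, 2.07, 2.62 and 3.85. The SD at each site was above that of 9 of the 10 laboratory groups. The mean absolute deviation was 0.966 at the sites and 0.367 in the laboratory, a difference of 0.60 (SE 0.11). This SE also leaves out differences between sites or between laboratory groups. The signal of contig_15820 was above background in 37 of 46 laboratory fish and 33 of 35 wild fish. The part of this in the result was not tested. Of the ratios given, the fish or the pool was not above background for -0.03 and 0.11 under methylmercury and -0.05 at St Jean. In the authors' processed values the difference was 0.14.

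**Figure D5:**
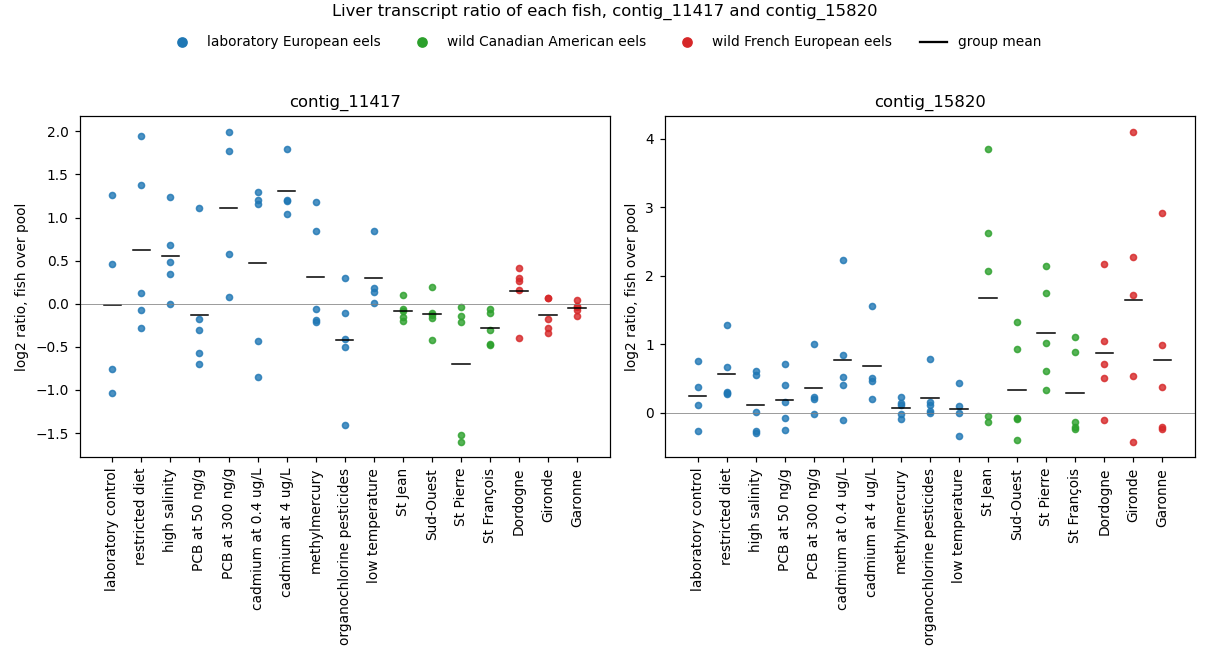
Log2 ratio of each fish over the pool (y axis) by group (x axis) for contig_11417 and contig_15820; each point is 1 fish and each bar the group mean. For contig_11417 the 15 French fish stay between -0.40 and 0.41, and for contig_15820 the Gironde fish run from -0.42 to 4.11.

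The other members named for this comparison had smaller differences. For contig_38113 the sites minus the laboratory gave 0.27, with a signal above background in 29 of 46 laboratory fish and 34 of 35 wild fish. For contig_31300 it gave -0.24. The rule used these deviations, so the differences are a description. With each fish left out the difference ran from 0.20 to 0.30 for contig_38113 and from -0.28 to -0.19 for contig_31300. contig_38113 dropped out of the counted members when any 1 of 44 fish was left out. contig_31300 dropped out without restricted diet fish 3 or without salinity fish 4.

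The counts depended on the measure of spread. With deviations taken from the group median instead of the mean, 0 of 992 contigs and 0 members passed in limma, with 73 contigs and 7 members at an unadjusted p under 0.05. With the 17 group SDs permuted exactly between sites and laboratory groups, again 0 of 992 passed. There 67 contigs and 9 members had an unadjusted p under 0.05. The rule ranked the members on these SDs and deviations, so both counts of members are a description and nothing is read from them. The ratio of site to laboratory SD was 0.311 for contig_11417 and 2.59 for contig_15820.

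Between French sites and laboratory groups 3 members passed, 2 with more spread and 1 with less, where 6 of 992 contigs passed (0.605%). The rule used these deviations, so the count and the differences are a description. Beside contig_15820 at 0.68 and contig_11417, the remaining member was contig_39488 at 0.66. Its Gironde fish had log2 ratios of -0.40, -0.05, 0.17, 3.65 and 3.69, and its Garonne fish -0.09, 0.20, 0.21, 0.26 and 3.84. Its Dordogne fish had -0.18, -0.11, -0.09, -0.01 and 0.05. Of the 15 French fish 3 were high, and without Garonne fish 1 the difference was 0.26. The signal of contig_39488 was above background in 23 of 46 laboratory fish and in none of the control, restricted diet and cadmium 0.4 ug/L fish. The Dordogne and Garonne fish at -0.09 were not above background. With deviations from the group median, 0 of 992 contigs passed in limma, with 37 contigs and 4 members at an unadjusted p under 0.05. Both comparisons share the laboratory groups and the French sites.

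Between Canadian and French sites 0 of 60 members and 0 of 992 contigs (0%) passed for spread in limma. At an unadjusted p under 0.05 there were 8 of 60 members and 11.8% of all contigs. The rule used these deviations, so the counts of members are a description. The SD was larger at the Canadian sites in 33 of 60 members (55%), against 52.8% of all contigs.

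Group means were not used to choose the members, so they were tested. Each test of means divides by the spread within groups, however, which the rule did use. The shares of members that passed are therefore a description. Across the 10 laboratory groups 17 members (28.3%) passed the limma F test, against 290 of 992 contigs (29.2%), so the share of members was near that of all contigs. Across the 7 sites 16 members (26.7%) passed, against 58 of 992 contigs (5.85%). No member passed all of the 4 tests of means, against 0.302% of all contigs. Of the members, 8 passed 3 tests (2.12% of all contigs did) and 17 passed none (49.6% of all contigs). The 4 tests share fish and groups, so passing several of them is not separate evidence.

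Among the members, contig_14467 had the strongest evidence of differing laboratory means (F = 5.63, limma adjusted p = 0.00114). The 4 cadmium 4 ug/L fish had log2 ratios of 0.52, 0.56, 0.82 and 0.96, and the 5 PCB 50 ng/g fish had -2.07, -1.62, -0.80, -0.55 and -0.20, with no overlap. For contig_14643 (F = 5.43, limma adjusted p = 0.00159) the 4 low temperature fish had -1.63, -1.49, -1.34 and -1.12, and the 5 cadmium 0.4 ug/L fish had -0.55, -0.50, -0.15, 0.09 and 0.14. With the low temperature fish that was left out put back as deposited, the adjusted p of contig_14643 became 0.167 in limma. Members that passed then numbered 11 instead of 17, with no count over all contigs given here. As deposited, that fish correlated at -0.56 to -0.49 with the others of its group.

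Among sites contig_31300 had the strongest evidence (F = 19.6, limma adjusted p = 1.40e-06). The 5 St Jean fish had log2 ratios of -2.71, -2.28, -2.25, -1.48 and -1.39, and the 5 St François fish had -0.32, 0.18, 0.23, 0.26 and 0.42. For contig_9568 (F = 11.6, limma adjusted p = 0.000285) the 5 Sud-Ouest fish had 0.41, 1.15, 1.22, 1.54 and 1.64, and the 5 St Pierre fish had -1.37, -1.20, -0.64, -0.12 and -0.07. In both contigs these extreme sites did not overlap. contig_9866 also passed (limma adjusted p = 0.0232), with group means of 1.62 at St Jean and -3.10 at Garonne.

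Between Canadian and French sites the means of 8 members differed, 3 higher and 5 lower in Canada, against 35 of 992 contigs (3.53%). Higher calls made up 1.41% of all contigs and lower calls 2.12%. For contig_31893 the 20 Canadian fish ran from -0.72 to 2.16 with a median of 1.36 and the 15 French fish from -0.72 to 1.47 with a median of 0.41, a difference in means of 1.00 (SE 0.18, limma adjusted p = 0.000907). For contig_18333 they ran from -1.23 to 4.38 with a median of 2.32 and from -2.45 to 3.15 with a median of 0.55, a difference of 1.95 (SE 0.55, limma adjusted p = 0.0386). For contig_16406 they ran from -4.40 to -0.43 with a median of -2.73 and from -3.05 to 1.18 with a median of -1.07, a difference of -1.36 (SE 0.39, limma adjusted p = 0.0404). For contig_20211 the difference was -0.92 (SE 0.24, limma adjusted p = 0.0262). The fish of the 2 countries overlapped in each of these 4 contigs. These SEs and p-values rest on the spread of fish within sites and leave out differences between sites of 1 country. For contig_20211 the Canadian site means ran from -2.42 to -0.30.

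The split of these calls depended on scaling. With median centring of arrays 8 members were higher and 1 lower, and 99 of 992 contigs passed. With scaling between arrays 6 members were higher and 5 lower, with no count over all contigs given here. The calls of contig_18333 and contig_16406 were lost when any 1 of 17 fish and of 21 fish, respectively, was left out. Those of contig_16406 and contig_20211 were lost with median centring and without background subtraction, where the limma adjusted p of contig_20211 was 0.052 and 0.232. The call of contig_16406 was also lost with scaling between arrays, and that of contig_18333 in processed values and with the median of spots.

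Between wild French and laboratory eels, which are 1 species, the means of 29 members differed, 20 higher and 9 lower in wild fish, against 32.9% of all contigs. Higher calls made up 17.9% and lower calls 14.9% of all contigs. The median difference was 0.20 log2 units over members and 0.0017 over all contigs. With median centring the members split into 12 higher and 9 lower, and the split over all contigs is not given here for that setting. The pool came from wild French eels as well, and wild and laboratory life, season and handling cannot be told apart. The laboratory side averaged all 10 laboratory groups, with 4 control fish among the 46. The SE and p below rest on the spread of fish within groups and leave out differences between sites or laboratory groups.

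contig_31300 was higher in the wild French fish. Its log2 ratio ran from -1.55 to 0.34 with a median of -0.14 in the 15 French fish and from -2.98 to 0.12 with a median of -1.70 in the 46 laboratory fish, a difference in means of 1.30 (SE 0.18, limma adjusted p = 8.05e-08). contig_38124 ran from -1.29 to 2.73 with a median of 0.67 and from -2.72 to 1.71 with a median of -0.85, a difference of 1.25 (SE 0.32, limma adjusted p = 0.00160). Lower in the wild French fish were contig_9635 by -1.05 (SE 0.30, limma adjusted p = 0.00609) and contig_20173 by -0.89 (SE 0.18, limma adjusted p = 7.49e-05). contig_9635 ran from -3.11 to 0.28 in the French fish and from -3.75 to 1.73 in the laboratory fish, and contig_20173 from -1.11 to 0.92 and from -0.55 to 2.02. The ranges overlapped in all 4. The French fish enter this comparison and that with Canadian fish.

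Membership depended on how the intensities were processed. Of the 60 members, 10 were among the 60 most variable contigs in the authors' processed values, which subtract the background with no offset. Within 632 contigs above background on at least 0.9 of the arrays, which held 51 of the members, 25 were among the 60 most variable. In the processed values 51 of 60 members were above the median of all contigs by spread and 27 in the highest 25%. Their median SD there was 0.744 log2 units, against 0.546 over all contigs. Without background subtraction 37 of the 60 remained.

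Of the 3 fish left out, 2 had processed values of their own and could be looked at separately. The control fish had a median absolute deviation of 0.680 log2 units from its group median over 58 members, against 0.800 over all contigs. More than 2 units separated it from the group in 6 members (10.3%) and in 16.5% of all contigs. The cadmium 4 ug/L fish deviated by 1.22 over 50 members and by 1.10 over all contigs, with 13 members (26%) and 25.8% of all contigs beyond 2 units.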

How the data were processed

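The authors deposited spot intensity values of both channels, foreground and background, for 84 arrays, which are uncorrected, per the file headers, and ran from 4 to 65535. They also deposited log2 ratios of fish over pool per contig, and 80 of those columns were recomputed from the intensities to within 0.001. No source used here names the scanner. Columns of restricted diet fish 2 and 3 were exchanged between the files.

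In limma 3.58.1 under R 4.3.3, background was handled by normexp with an offset of 50 and dye bias by loess in each array, and ratios were turned to fish over pool and averaged over 3 spots. Each fit (lmFit, eBayes) ran over 992 contigs with a mean per group, and p-values were adjusted by Benjamini-Hochberg with a threshold of 0.05. Spread was fitted on absolute deviations from the group mean, scaled for group size. SE and adjusted p come from limma. For differences between sets of groups they rest on fish within groups and leave out variation between the groups of a set. The fits were tested on simulated data. A contig was above background where its mean background-subtracted signal exceeded 0. Fish numbers follow accession order and pair no fish, and fish are separate animals per the labels' design text. The number of arrays limits the precision.

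Members and alternatives were chosen with earlier results of these data known. Named contigs were the 6 of largest spread, those around the last rank, up to 2 called each way per fit, and the extreme pairs and counts.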

Additional observations from a re-analysis of the deposited data

Results flagged for a closer look

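Among 110 sets of fish (1 contig in 1 group) tested, which covered the 6 contigs of largest spread in every group and the extreme groups of the contigs named for group means, single fish far from the rest of the group were marked by Dixon's test in 8. Chance alone marks about 1 in 20 groups. The 6 contigs were ranked on this same spread, so the marks describe them.

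contig_9866 was high in restricted diet fish 4, at 3.96 with the next fish at -1.08, and low in PCB 50 ng/g fish 3, at -2.22 with the next at -0.01. contig_18333 was low in organochlorine pesticide fish 1, at -2.36 with the next at 1.34. contig_16406 was high in control fish 2, at 0.087 with the next at -1.69, and contig_16488 was high in low temperature fish 1, at -1.88 with the next at -2.90. contig_38124 was high in methylmercury fish 4, at 1.71 with the next at -0.96, and in low temperature fish 5, at 1.39 with the next at -1.38. It was low in cadmium 4 ug/L fish 3, at -0.00076 with the next at 1.05.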

How the results depend on the processing

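Alternatives were no background subtraction, median centring, use of the authors' processed values, scaling between arrays, the median of spots, dropping dim contigs, keeping or turning the low temperature fish, dropping 3 arrays with under 500 contigs above background, deviations from group medians, and each fish left out. Chosen after seeing the data were a normexp offset of 10, processed values over contigs above background, and exact permutation of group SDs. Each slide held 1 array, so slide could not be fitted as a block. No paired analysis was possible because fish numbers follow accession order and pair no fish. Where values moved, the cause was not tested.

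Members past the threshold for spread at the sites numbered 6, and 3 without background subtraction or with the low temperature fish as deposited, and 0 with group medians or permuted SDs. They split 3 larger and 3 smaller, but 3 and 1 with median centring, 4 and 1 with scaling, and 0 and 7 in processed values. Against French sites the 3 members became 1 with median centring and 0 with group medians. contig_15820 reversed there in processed values, at -0.046. Between Canadian and French sites 0 became 1 without background subtraction, and all contigs called rose from 0 to 22 with median centring. Among members, differing laboratory means fell from 17 to 11 with the low temperature fish as deposited. Where calls over all contigs are not given for an alternative, a change in members cannot be told apart from one in all contigs. Canadian against French means split 5 and 3 without background subtraction and 4 and 4 in processed values, and French against laboratory means 14 and 10 in processed values.

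The 60 members kept were 37 without background subtraction, 10 in processed values, 25 there over contigs above background, and 36 when ranked on the sites alone. Distant values, 2.94% of all, became 1.01% without background subtraction, 6.91% in processed values, 5.27% over 1.5 units and 0.638% over 3 units. The 17 pairs with r over 0.5 became 45 with median centring, 43 in processed values and 29 with the low temperature fish as deposited.

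With each fish left out, members called ranged from 3 (without restricted diet fish 3 or organochlorine pesticide fish 4) to 7 for site spread, 2 to 4 for French spread, 0 to 2 for Canadian against French spread, 14 to 19 for laboratory means, 14 to 17 for site means, 6 to 10 for Canadian against French means and 24 to 31 for French against laboratory means. The list kept 55 to 60 contigs, distant values ranged from 2.73% to 3.02%, pairs from 14 to 23, and members more variable at the sites from 24 to 29. Over all contigs, calls for French spread ranged from 0 to 31 over these alternatives (6 as reported), and those for site means were 34 without background subtraction and 33 in processed values (58 as reported). For Canadian against French means they were 21 and 23 (35 as reported), and for site spread 82 in processed values (44 as reported).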
